A study of Mus musculus with 13 samples.

Results

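The circadian clock genes described here are 10 genes chosen by symbol, namely Arntl, Clock and Npas2 of the positive arm, Per1, Per2 and Per3 of the negative arm, and Dbp, Tef, Nr1d1 and Nr1d2, which the positive arm switches on. All 10 of 10 listed symbols had a row in the values table, each as 1 probe set among the 15437 tested. Levels were measured in sciatic nerve, the large mixed nerve of the hind limb, of BKS mice aged 24 weeks. The first group is db/db, with 2 copies of the db allele of the leptin receptor gene, a model of obesity and type 2 diabetes, on 6 arrays. The second is db/+, which carries 1 copy of the same allele and serves as the control, on 7 arrays. The labels name no treatment in either group, and all 13 samples share the BKS strain. Every sample is a 1-colour Affymetrix array of total RNA, amplified and labelled with biotin. The labels do not state that each array is a separate animal, so p-values measure the spread between these samples. The labels give no hour of collection for the nerves.

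The clock is a feedback loop of transcription that runs in nearly every cell of the body and repeats about once a day. BMAL1, the product of Arntl, pairs with CLOCK or its relative NPAS2 and binds E-box sequences. That pair switches on the Per genes, whose proteins with the cryptochromes shut the pair down again, and also the genes of the REV-ERB receptors (Nr1d1, Nr1d2) and of the D-box activators DBP and TEF. REV-ERB receptors repress Arntl through RORE sequences, so that in tissues with a running clock Arntl peaks at the opposite phase to Dbp and the REV-ERB genes.

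The start regions of the members were read for the sequences through which the loop works, because the members moved together across arrays. RefSeq promoter windows on GRCm38.p6, each 250 bases before to 50 after a start, matched 9 of 10 members, all but Per2, with 14 windows. Both strands were searched. The E-box was searched as CACGTG, the D-box as TTATGNAA and the core of the RORE as TAGGTCA. None of the hits printed here overlaps another. The 4 windows below, 1 for each member with a match, carry these letters in capitals: the RORE core in Arntl, the E-box and the D-box in Per1, 2 D-boxes in Per3 and the E-box in Tef.
Arntl, chr7:113207261-113207560, plus strand: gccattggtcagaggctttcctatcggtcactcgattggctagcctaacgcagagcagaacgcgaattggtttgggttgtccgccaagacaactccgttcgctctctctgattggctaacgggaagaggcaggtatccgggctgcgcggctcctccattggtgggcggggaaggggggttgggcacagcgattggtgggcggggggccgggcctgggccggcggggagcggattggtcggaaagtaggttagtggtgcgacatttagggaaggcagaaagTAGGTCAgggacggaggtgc
Per1, chr11:69098699-69098998, plus strand: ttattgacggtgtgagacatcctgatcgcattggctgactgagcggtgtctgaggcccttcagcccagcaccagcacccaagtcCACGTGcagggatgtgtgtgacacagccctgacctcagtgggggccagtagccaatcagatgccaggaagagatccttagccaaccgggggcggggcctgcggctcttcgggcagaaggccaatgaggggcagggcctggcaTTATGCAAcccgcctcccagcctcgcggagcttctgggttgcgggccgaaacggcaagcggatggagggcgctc
Per3, chr4:151044616-151044915, minus strand: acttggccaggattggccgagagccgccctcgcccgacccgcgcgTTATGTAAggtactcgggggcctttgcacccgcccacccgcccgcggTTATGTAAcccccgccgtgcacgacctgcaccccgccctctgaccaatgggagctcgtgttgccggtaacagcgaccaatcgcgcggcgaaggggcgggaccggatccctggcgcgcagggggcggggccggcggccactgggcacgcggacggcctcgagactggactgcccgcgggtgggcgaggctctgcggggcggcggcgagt
Tef, chr15:81802423-81802722, plus strand: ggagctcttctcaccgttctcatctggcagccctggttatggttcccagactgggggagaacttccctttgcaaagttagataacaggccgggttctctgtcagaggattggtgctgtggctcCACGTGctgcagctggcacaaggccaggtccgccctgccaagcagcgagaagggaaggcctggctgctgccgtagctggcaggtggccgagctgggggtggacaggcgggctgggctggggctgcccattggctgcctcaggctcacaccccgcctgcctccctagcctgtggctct
The RORE core of Arntl, the motif of REV-ERB and ROR receptors, begins at position +31 from the start. In Per1 the E-box begins at -166 and the D-box at -24, and in Per3 the D-boxes begin at -205 and -158. Tef has an E-box at -127 in the window shown and another at -138 in its window 2. Of 32851 windows over 27025 genes, 7.15% hold this E-box, 3.38% the D-box and 2.61% the RORE core. A match is a description of letters and not of binding.

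Values are log2 levels made by the authors with RMA, and a difference of 1 is a doubling. Array medians lay between 8.63 and 8.71, and arrays correlated with each other at 0.894 to 0.989 over all probe sets. The 3 prime minus 5 prime level of the actin control, a check of RNA quality, differed between groups. It was 0.675 to 0.916 on db/db arrays 110 to 112 and 0.485 to 0.613 on db/db arrays 409 to 411. On db/+ arrays it was 0.399 on 407 and 0.963 to 1.395 on the others. Its part in the results below was not tested. Sample numbers fall in 2 series whose meaning the labels do not state. The series 404 to 411 holds 3 db/db and 2 db/+ arrays, and the series 101 to 112 holds 3 db/db and 5 db/+ arrays. The mean level of 12 of 12 neuronal markers was 6.77 to 7.48 on db/db arrays, against 11.64 to 12.45 on db/+ arrays 101, 103, 104 and 106 and 7.55 to 8.75 on db/+ arrays 105, 404 and 407. Those 4 db/+ arrays stand apart, and results are given with and without them where a call changes. What sets them apart was not tested. Myelinating Schwann cell markers, the defining markers of the tissue (7 of 10 measured), averaged 9.26 to 10.61 on db/db arrays and 10.17 to 11.34 on db/+ arrays. Adipocyte markers (8 of 10 measured) averaged 12.80 to 12.92 on db/db arrays and 11.47 to 12.48 on db/+ arrays. Fewer cells of a type and less RNA per cell cannot be told apart in such whole-nerve samples.

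Of the 3 positive arm genes, Clock passed the test between genotypes. Clock, the DNA-binding partner of BMAL1, lay at 11.03, 11.32 and 11.43 (lowest, median and highest) on db/db arrays and at 10.63, 10.80 and 11.09 on db/+ arrays. Of the 6 db/db arrays, 5 were above every db/+ array, and db/db 409 (11.03) fell just below db/+ 105 (11.09) and db/+ 104 (11.05). Clock was higher by 0.47 ± 0.10 on the log2 scale (± SE, as for all differences and slopes; limma, Benjamini-Hochberg adjusted p = 0.00488). It was the 1 member of 10 that passed, while 25.1% of all 15437 genes passed the same test, so the share among the members was no higher than the background. The Clock difference was 0.50 within arrays 404 to 411 (adjusted p = 0.0900) and 0.46 with the neuronal marker mean in the fit (adjusted p = 0.0543), and both of these miss the threshold of 0.05.

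Arntl, which encodes BMAL1, had the largest SD within genotype of the 10 members, at 0.98. It lay at 8.21, 8.27 and 9.18 on db/db arrays and at 7.15, 8.66 and 10.32 on db/+ arrays. The db/db arrays spanned 0.98 on the log2 scale and lay wholly inside the range of the db/+ arrays, which spanned 3.17. On db/db arrays 5 of 6 values fell between 8.21 and 8.38, and db/db 110 stood above them. The lowest db/+ values were on arrays 404 (7.15), 407 (7.48) and 103 (7.59), and the highest were on 105 (10.32) and 104 (10.06). Arntl averaged 8.42 ± 0.38 on db/db arrays (SD, n = 6) and 8.65 ± 1.29 on db/+ arrays (SD, n = 7), a difference of -0.23 ± 0.50 that did not pass (adjusted p = 0.774). The 4 db/+ arrays with high neuronal markers covered 7.59 to 10.06 in Arntl and the other db/+ arrays 7.15 to 10.32, so the spread was present in both.

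Npas2, the relative of CLOCK that can take its place, lay at 6.80, 6.98 and 7.22 on db/db arrays and at 6.34, 6.97 and 7.72 on db/+ arrays. Its difference was 0.03 (limma adjusted p = 0.933), and the db/db values lay inside the db/+ range.

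**Figure D1:**
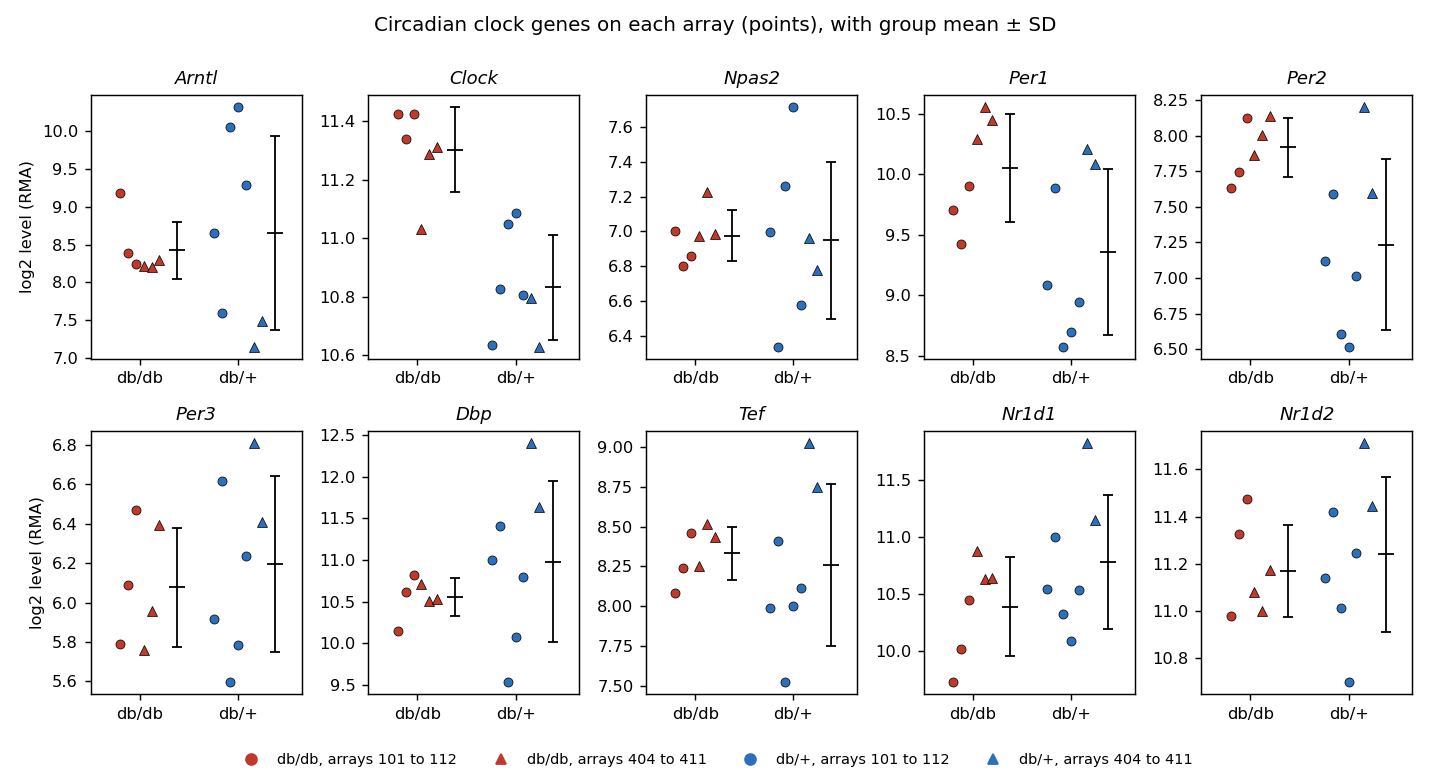
Log2 RMA level of each of the 10 clock genes on every array (vertical axis, 1 panel a gene), db/db left of db/+, with circles for sample numbers 101 to 112, triangles for 404 to 411, and bars for the group mean ± SD. The db/db points of Arntl run over 0.98 log2 units and those of db/+ over 3.17, while Clock is the gene with most db/db points above the db/+ points.

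The Per genes, the repressors of the loop, had higher means on db/db arrays for Per1 and Per2, but neither passed. Per1 lay at 9.43, 10.09 and 10.55 on db/db arrays and at 8.58, 9.08 and 10.21 on db/+ arrays. Per2 lay at 7.63, 7.93 and 8.14 on db/db arrays and at 6.52, 7.12 and 8.20 on db/+ arrays. For Per2 each db/db value exceeded 6 of the 7 db/+ values, and only db/+ 404 reached above all of them. The differences were 0.70 ± 0.30 for Per1 (limma adjusted p = 0.109) and 0.68 ± 0.24 for Per2 (adjusted p = 0.0542). Per2 passed without db/+ 404 (difference 0.84, adjusted p = 0.00897) and without db/+ 407 (adjusted p = 0.0430), and so its call depends on which single db/+ arrays are in the fit. Per1 also passed without db/+ 404 (difference 0.84, adjusted p = 0.0497). Of all 15437 genes, 4173 passed without db/+ 404 and 4529 without db/+ 407. With array weights Per1 and Per2 both passed, as did 42.3% of all genes. Per3, the third paralogue, lay at 5.76, 6.03 and 6.47 on db/db arrays and at 5.60, 6.24 and 6.81 on db/+ arrays, and its difference was -0.12 (adjusted p = 0.704).

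The genes driven by the positive arm did not pass between genotypes. Dbp, a D-box activator and one of the strongest rhythmic outputs of the clock in mouse tissues, lay at 10.15, 10.57 and 10.82 on db/db arrays and at 9.54, 10.99 and 12.41 on db/+ arrays. Tef, its relative, lay at 8.08, 8.34 and 8.52 on db/db arrays and at 7.52, 8.11 and 9.03 on db/+ arrays. For both genes the db/db values sat in the middle of the db/+ values, with db/+ 404 and 407 at the top and db/+ 104 at the bottom. The differences were -0.42 ± 0.37 for Dbp (limma adjusted p = 0.432) and 0.07 for Tef (adjusted p = 0.828). Nr1d1, which encodes REV-ERB alpha, lay at 9.73, 10.54 and 10.88 on db/db arrays and at 10.09, 10.55 and 11.83 on db/+ arrays. Nr1d2, which encodes REV-ERB beta, lay at 10.98, 11.13 and 11.47 on db/db arrays and at 10.70, 11.25 and 11.71 on db/+ arrays. The groups overlapped in both REV-ERB genes, with db/+ 404 the highest array in each. The difference was -0.39 ± 0.27 for Nr1d1 (adjusted p = 0.311) and -0.07 for Nr1d2 (adjusted p = 0.771). In a fit that blocks on the number series the Nr1d1 difference was -0.57 ± 0.18 (adjusted p = 0.0327), and 27.4% of all genes passed that fit.

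The db/db arrays lay closer together than the db/+ arrays. The SD was smaller among db/db than db/+ arrays for 10 of 10 members, and larger in db/+ for 68.6% of all genes, a comparison given as a description with no test. Dbp had an SD of 0.23 on db/db arrays and 0.97 on db/+ arrays. Tef had an SD of 0.17 on db/db arrays and 0.51 on db/+ arrays, while Nr1d1 was more alike at 0.43 on db/db arrays and 0.59 on db/+ arrays. Over all genes the median SD was 0.22 on db/db arrays and 0.29 on db/+ arrays. The SD within genotype of Arntl stood at percentile 95.8 of all genes and that of Dbp at percentile 92.0, against percentile 17.3 for Clock. None of the 10 members had groups without overlap, a state reached by 9.68% of all genes.

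**Figure D2:**
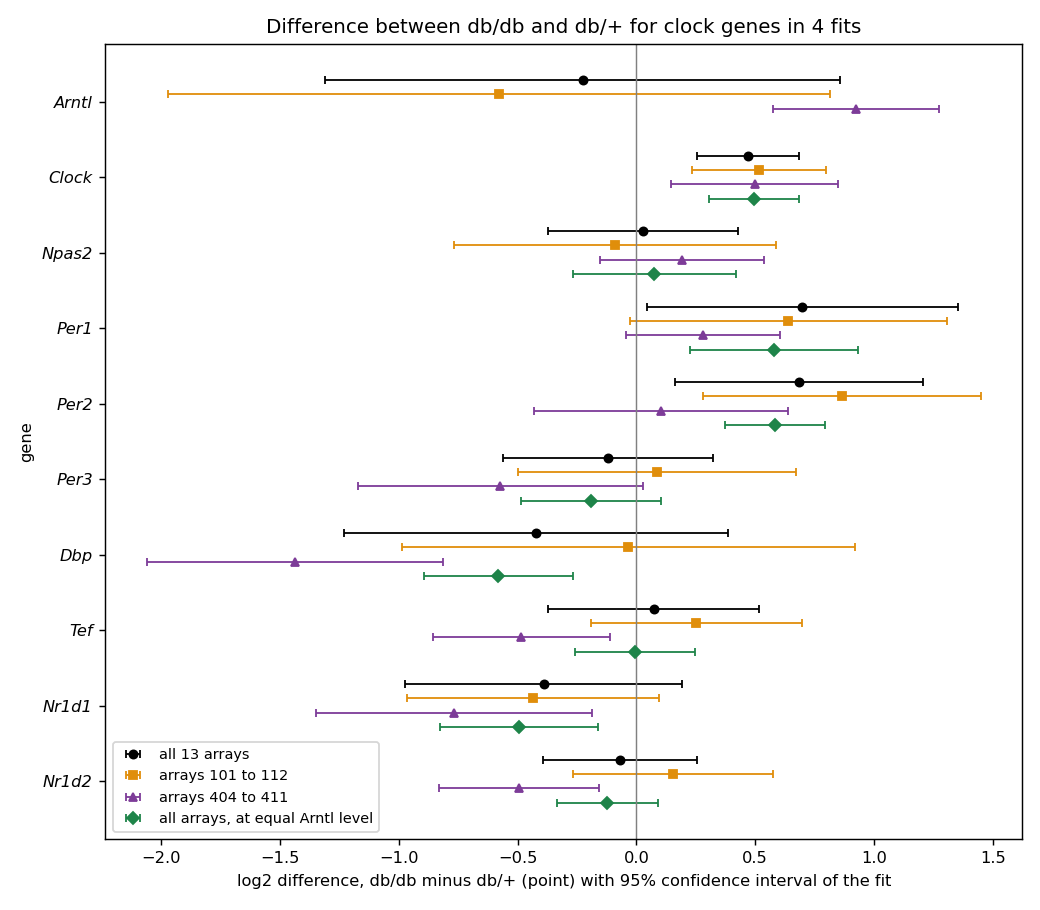
Difference in log2 level, db/db minus db/+, for the 10 clock genes with 95% confidence intervals from limma, over all 13 arrays and at equal Arntl level. Over all arrays Clock alone passes, at 0.47, and at equal Arntl level Clock, Per1 and Per2 lie above 0 and Dbp and Nr1d1 below it with adjusted p under 0.05.

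Levels of Arntl ran opposite to those of the genes the loop places opposite to it. Deviations from the genotype mean were compared over 13 arrays for the 21 pairs of 3 positive arm genes with 7 negative arm or driven genes, with permutation within genotype and adjustment over the 21 pairs. Of these, 21 of 21 had a negative Pearson r, and 7 passed by Pearson r, which were the 7 pairs of Arntl. Arntl correlated with Per2 at r = -0.95 (permutation adjusted p = 0.00042; Spearman rho = -0.95) and with Dbp at r = -0.94 (permutation adjusted p = 0.00098; rho = -0.89). Its r was -0.87 with Per1 (permutation adjusted p = 0.00378; rho = -0.94), -0.87 with Tef (0.00798; rho = -0.93) and -0.86 with Nr1d1 (0.00021; rho = -0.90). The r with Nr1d2 was -0.84 (permutation adjusted p = 0.00428; rho = -0.76) and that with Per3 was -0.80 (0.0166; rho = -0.73). The unadjusted p of Nr1d1 was 1e-05, the smallest that 100000 resamples can give. On an array with Arntl above its genotype mean, these 7 genes tended to lie below theirs. In the windows read Per1, Per3 and Tef hold an E-box or D-box, and Dbp, Nr1d1 and Nr1d2 hold none of the 3 motifs. Per2 had no window, and a relation between motifs and r was not tested. The r with the 7 genes ran from -0.21 to -0.60 for Clock and from -0.33 to -0.70 for Npas2. By Pearson r neither gene passed in any of its pairs over the 13 arrays. By Spearman rho 9 pairs passed over the 13 arrays, the 7 of Arntl among them. The others were Clock with Nr1d1 (rho = -0.77, permutation adjusted p = 0.0128) and Npas2 with Nr1d2 (rho = -0.73, 0.0415). With levels centred on genotype and number series, 5 pairs passed, namely Arntl with Per2 (permutation adjusted p = 0.0084), Nr1d1 (0.0084), Dbp (0.0302) and Nr1d2 (0.0302), and Npas2 with Nr1d2 (r = -0.80, 0.0302). In that setting Arntl with Per1 (permutation adjusted p = 0.0504), Per3 (0.0567) and Tef (0.119) did not pass, and 0 pairs passed by Spearman rho.

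Within the arms the signs were the opposite. All 21 pairs among the 7 negative arm and driven genes had a positive r, from 0.57 to 0.94 with a median of 0.84. Arntl correlated with Clock at 0.64 and with Npas2 at 0.61. These within-arm values share the same 13 arrays and are given as a description.

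**Figure D3:**
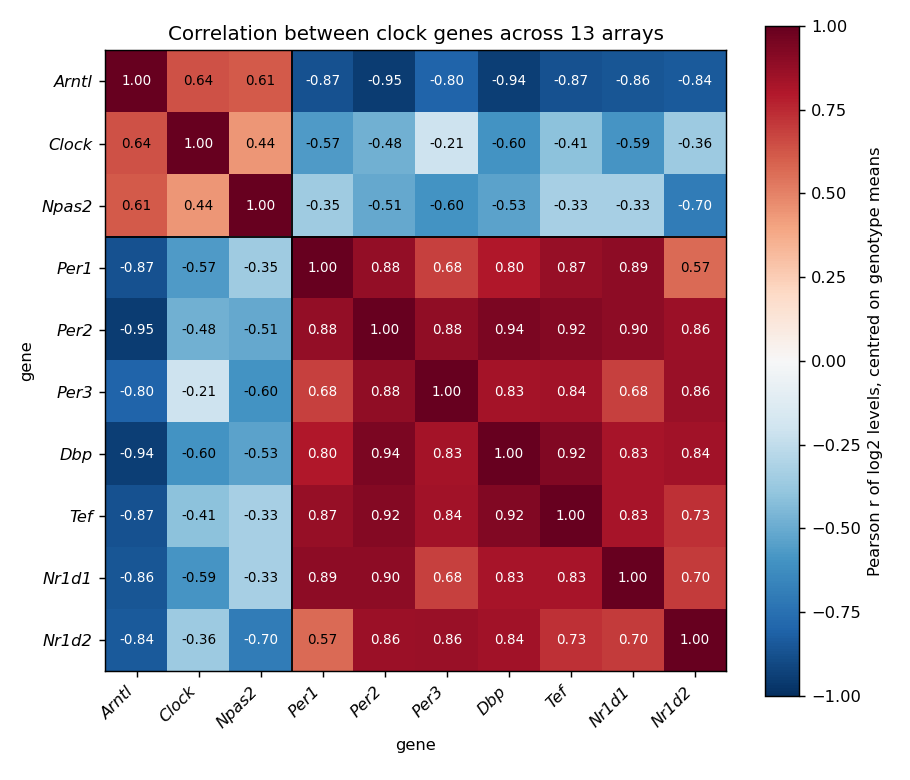
Pearson r between each pair of the 10 clock genes over 13 arrays, on log2 levels centred on the genotype mean (colour and printed value, blue below 0 and red above). The lines divide the 3 positive arm genes from the other 7, and the blocks off the diagonal are negative in 21 of 21 pairs.

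Each genotype was also taken alone. Among the 6 db/db arrays 0 of 21 pairs passed, 14 of 21 had a negative r, and the lowest exact permutation adjusted p was 0.263. There Arntl had an r of -0.87 with Dbp (rho = -0.31) and of -0.83 with Nr1d1 (rho = -0.71), with db/db 110 well above the other arrays in Arntl. Among the 7 db/+ arrays the 7 Arntl pairs passed the exact permutation test by Pearson r. By Spearman rho 6 of them passed, all but Tef (rho = -0.82, exact permutation adjusted p = 0.102). By rank the order of the arrays in Per2 and in Nr1d1 was the exact reverse of that in Arntl. Single arrays show it. Array db/+ 404, at Arntl 7.15, had 12.41 for Dbp, 11.83 for Nr1d1 and 8.20 for Per2. Array db/+ 105, at Arntl 10.32, had 10.08 for Dbp, 10.09 for Nr1d1 and 6.52 for Per2. Whether the correlation differs between genotypes was not tested. Without the arrays with the 2 most extreme Arntl levels, r was -0.88 with Per2, -0.89 with Dbp and -0.82 with Nr1d1, which passed, while the other 4 Arntl pairs did not. Arrays 101 to 112 alone (n = 8, permutation test) gave 6 pairs that passed by Pearson r. These were Arntl with Per2, Dbp, Nr1d1 and Nr1d2, and Npas2 with Nr1d1 and Nr1d2. Per1, Per3 and Tef did not pass with Arntl there, and 0 pairs passed by Spearman rho. Arrays 404 to 411 (n = 5) were too few for a correlation. Without db/+ 101, 103, 104 and 106 (n = 9, permutation test) 3 pairs passed by Pearson r, with r of -0.94 for Per2, -0.95 for Tef and -0.88 for Nr1d1. In that setting too 0 pairs passed by Spearman rho.

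**Figure D4:**
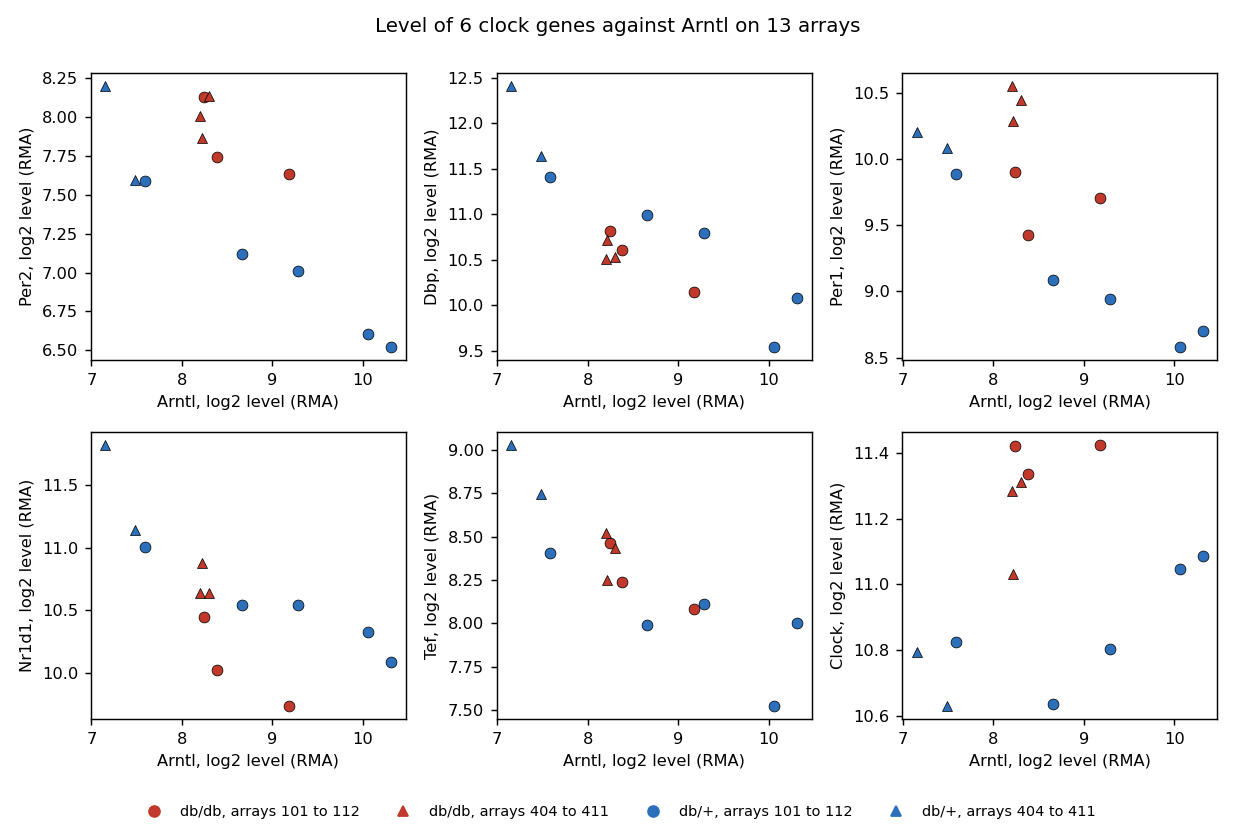
Log2 level of each of 6 genes against the log2 level of Arntl on the same array, for db/db and db/+ arrays, with marker shape for the number series. The db/db arrays cluster between Arntl 8.21 and 9.18, with Per2 above and Dbp below the values of db/+ 101 at Arntl 8.66, and the db/+ arrays lie along a falling line from Arntl 7.15 to 10.32.

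Out of 15436 other genes, the members were near the top in likeness to Arntl by the size of r. Per2 ranked 1, Dbp 2, Per1 12, Tef 13, Nr1d1 21, Nr1d2 30 and Per3 73, while Clock ranked 918 and Npas2 1220. The slope on the Arntl level, with genotype in the fit, was -0.70 ± 0.08 for Dbp and -0.45 ± 0.05 for Per2 (log2 per log2; limma adjusted p = 0.0148 for each). Those were the only 2 of 15436 genes to pass that fit (0.013%). The median slope was -0.35 over the 9 other members, and -0.73 over 10 of 10 skeletal muscle markers, of which 0 passed. The mean level of those muscle markers ran from 6.47 to 11.38 on db/db arrays and from 7.15 to 12.05 on db/+ arrays, and their part in the relation to Arntl was not tested. No gene (0%) passed it in the fit that blocks on the number series, where 628 genes had an unadjusted p under 0.05, and none without db/+ 104 or without db/+ 404. The genes outside the list with the most similar or opposite pattern were Ss18 (r = 0.89), Slamf9 (0.88), Prrc1 (0.88), Tgif2 (0.88) and Golga5 (0.87), and at the other end Tmem198 (-0.94), Rgs3 (-0.93), Dtnb (-0.90), Mymx (-0.88) and Gstt2 (-0.87). For Dbp the highest were Pnldc1 (r = 0.90), Rgs3 (0.89), Ciart (0.88), Ndufa3 (0.88) and Vipas39 (0.88). Ciart, a repressor of the clock itself, is the 1 of these that belongs to the clock neighbour list. The lowest with Dbp were Tgif2 (r = -0.88), Prelid3b (-0.86), Prrc1 (-0.85), Mycn (-0.85) and Fbxo8 (-0.85).

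Because Arntl levels differed so widely between arrays, genotypes were also compared at equal Arntl level, a fit chosen after the data had been seen. It takes 1 slope for both genotypes. At equal Arntl level Clock, Per1 and Per2 were higher in db/db nerve, and Dbp and Nr1d1 were lower. These are 5 of the 9 other members, while 24.2% of all genes passed that fit. The 2 shares are not alike, because Arntl is itself a member and 7 of the 9 ran opposite to it. With Arntl left out of the fit 1 of 10 members passed, with 25.1% of all genes. Per2 was higher by 0.58 ± 0.10 (limma adjusted p = 0.00149) and Clock by 0.50 ± 0.09 (adjusted p = 0.00205). Per1 was higher by 0.58 ± 0.16 (adjusted p = 0.0235). Dbp was lower, by -0.58 ± 0.14 (adjusted p = 0.0134), and so was Nr1d1, by -0.49 ± 0.15 (adjusted p = 0.0346). In that fit Per1 and Per2 were thus above their db/+ levels and Dbp and Nr1d1 below theirs. Without an hour of collection, arrays of equal Arntl level cannot be said to share a phase. The cause of these differences was not tested. Npas2 (0.08), Per3 (-0.19), Tef (-0.01) and Nr1d2 (-0.12) did not pass. Without db/+ 101, 103, 104 and 106, Clock (0.45), Per2 (0.53) and Dbp (-0.75) passed and Per1 (0.44) and Nr1d1 (-0.57) did not, with 14.1% of all genes passing. Nr1d1 lost its call in 6 of the 13 fits that leave out 1 array, those without db/db 110, 111 or 112 or db/+ 104, 106 or 404. Per1 lost it in 2, those without db/db 110 or 411.

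Between the 2 number series, at equal genotype, Per1 and Nr1d1 passed. Per1 was higher in arrays 404 to 411 than in 101 to 112 by 0.93 ± 0.20 (limma adjusted p = 0.0101) and Nr1d1 by 0.81 ± 0.18 (adjusted p = 0.0116). These are 2 of 10 members, a share near that of all genes, of which 17% passed. Per1 averaged 10.43 ± 0.13 on db/db arrays 404 to 411 (SD, n = 3) and 9.68 ± 0.24 on db/db arrays 101 to 112 (SD, n = 3). On db/+ arrays it averaged 10.15 in the series 404 to 411 (n = 2) and 9.04 in the series 101 to 112 (n = 5). Per1 was above its 101 to 112 counterparts on all arrays 404 to 411 of the same genotype. Arntl differed by -1.09 ± 0.45 and did not pass (adjusted p = 0.116). The 4 db/+ arrays with high neuronal markers all lie in the series 101 to 112. The median difference of 12 neuronal markers was -1.86 over all arrays, 0.22 within db/db arrays and -4.07 within db/+ arrays, and that of 7 Schwann cell markers was -0.61, with 2 lower. Without those 4 arrays Per1 (0.97) and Nr1d1 (0.88) still passed. Within db/db arrays 0 of 10 members passed and 2.4% of all genes did; within db/+ arrays 0 members passed and 0.395% of genes did.

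Genotype was also compared within each series. In arrays 404 to 411 Arntl was higher in db/db, at 8.21 to 8.30 on 3 db/db arrays against 7.15 and 7.48 on 2 db/+ arrays, and Dbp was lower, at 10.51 to 10.71 on db/db arrays against 11.64 and 12.41 on db/+ arrays. The differences were 0.93 ± 0.14 for Arntl (limma adjusted p = 0.0255) and -1.44 ± 0.25 for Dbp (adjusted p = 0.0328), in a fit that 9.1% of all genes passed. In arrays 101 to 112 Clock (0.52, adjusted p = 0.0280) and Per2 (0.87, adjusted p = 0.0496) passed, with 18.5% of all genes, and Arntl was at -0.58 ± 0.60 (adjusted p = 0.535). The test of whether the genotype difference itself differs between the series gave 0 genes (0% of 15437) at the adjusted threshold, and 2360 genes at an unadjusted p under 0.05. In it Arntl had 1.51 ± 0.83 (adjusted p = 0.394) and Dbp -1.40 ± 0.60 (adjusted p = 0.308). What the number series stand for, and so whether they differ in the hour or day of collection, was not tested and cannot be told from the labels.

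Around the 10 members, 20 of 22 other clock genes were measured, and 1 was higher in db/db, fewer than the 13.4% of all genes that were higher. Cry1, the cryptochrome that with the PER proteins represses BMAL1 and CLOCK, lay at 10.32 to 10.90 on db/db arrays and 9.44 to 10.46 on db/+ arrays, higher by 0.60 ± 0.17 (limma adjusted p = 0.0249). It missed the threshold without db/+ 101, 103, 104 and 106 (0.63, adjusted p = 0.0930), and also without db/+ 103, db/db 410 or db/db 411 alone. Without those 4 db/+ arrays Gsk3b (0.52) and Rorb (-0.47), also named after their values were seen, passed in its place. The median difference of the 20 genes was 0.11, against 0.02 over all genes. Of 9 measured outputs of the clock (12 listed), 5 were higher in db/db and 0 were lower, with a median of 0.46, beside the same 13.4%. Noct, which encodes nocturnin and follows the clock in mouse liver, was the clearest, at 10.66 to 11.17 on db/db arrays and 9.27 to 9.96 on db/+ arrays. Its groups did not overlap, and it was higher by 1.37 ± 0.13 (adjusted p = 1.8e-05), with 1.43 without those 4 db/+ arrays. The other 4 that were higher were Elovl3, a fatty acid elongase near the bottom of the level range at 3.68 to 6.96 on db/db arrays and 2.86 to 3.91 on db/+ arrays (1.79), Lonrf3 (1.01), Pdk4, a kinase that shuts pyruvate dehydrogenase (0.46), and Tsc22d3, a glucocorticoid target (0.25). The Tsc22d3 call was lost in 6 of the 13 fits that leave out 1 array, those without db/db 112, 410 or 411 or db/+ 101, 104 or 106. Without db/+ 101, 103, 104 and 106, 3 of the 9 were higher, with 6.12% of all genes higher. They were Noct, Pdk4 and Ppargc1a (0.89), a coactivator of mitochondrial genes named here after its value was seen. Adipocyte markers were also higher on db/db arrays, as given above, and their part in these differences was not tested.

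**Figure D5:**
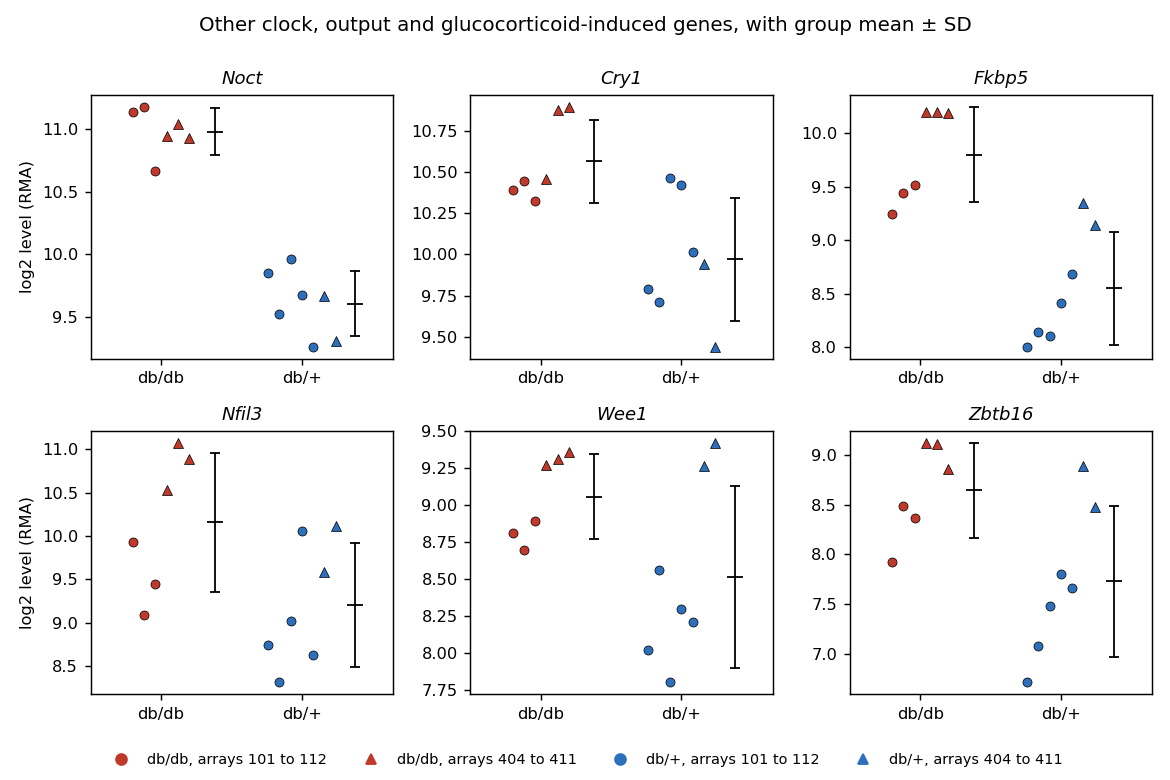
Log2 RMA level on each array for Noct, Cry1, Fkbp5, Nfil3, Wee1 and Zbtb16, db/db left of db/+, with circles for sample numbers 101 to 112, triangles for 404 to 411 and bars for the group mean ± SD. Noct separates the genotypes, and Wee1 and Zbtb16 lie higher on the triangles than on the circles of the same genotype.

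Glucocorticoids also reach the clock, through Per1 among others, so genes they induce were counted beside it. All 12 of 12 listed were measured; 7 were higher in db/db, where 13.4% of all genes were, and 0 were lower. Their median was 0.33, and Pdk4 and Tsc22d3 stand in both lists. Fkbp5, a co-chaperone of the glucocorticoid receptor, lay at 9.25 to 10.20 on db/db arrays and 8.01 to 9.35 on db/+ arrays, higher by 1.25 ± 0.26 (limma adjusted p = 0.00416). Cdkn1a, an inhibitor of the cell cycle, was higher by 0.64 (adjusted p = 0.00493). Without db/+ 101, 103, 104 and 106 1 of the 12 passed, Pdk4, with 6.12% of all genes higher. Between the number series 6 of these 12 were higher in arrays 404 to 411, with 10.5% of all genes higher, and none was lower: Fkbp5 (0.88), Zbtb16 (1.06), Errfi1 (0.68), Klf9 (0.65), Mt1 (0.44) and Mt2 (0.44). Without those 4 db/+ arrays 5 of the 12 were higher, all but Errfi1 of the 6, with 5.74% of all genes higher. Within db/db arrays 1 of 12 passed (Fkbp5, 0.79), with 2.4% of all genes. Within db/+ arrays 0 of 12 passed, with 0.395% of all genes. The neuronal and Schwann cell markers move between the series as given above, and their part in these differences was not tested. In the same comparison 3 of 9 clock outputs were higher, Wee1 (0.83), Usp2 (0.69) and Tspan4 (0.59), also without those 4 arrays, and 0 of 9 were within either genotype alone. The Tspan4 call was lost in 7 of the 13 fits that leave out 1 array, those without db/db 111, 409 or 411 or db/+ 101, 106, 404 or 407. Of the 20 clock neighbours 2 were higher, Nfil3 (1.13), a repressor at D-boxes, and Rora (0.72), an activator at ROREs. The 1 that was lower was Prkaa1, a catalytic subunit of the AMP-activated kinase (difference -0.44). Over all genes 10.5% were higher and 6.48% lower, so the shares among the neighbours were near the background. None of the 20 passed without those 4 arrays (Nfil3 0.87, Rora 0.57, Prkaa1 -0.40) or within either genotype alone, and Nfil3 was also lost without db/+ 407.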

How the data were processed

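Sciatic nerve RNA of 6 db/db and 7 db/+ samples was amplified and hybridised, per the labels' protocols. The authors made the deposited log2 levels with RMA, per the submitters' processing notes; no further normalization was applied. RMA subtracts background, scales arrays to 1 distribution and summarises probes, which removes differences in total signal and compresses folds of dim genes. Which RMA version and which probe set definition were used is not stated there. No detection calls came with the values, and precision is limited by the number of arrays.

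Of 15479 probe sets, 42 controls were left out and 15437 tested, of which 14801 paired with 1 gene symbol and 636 with none. Groups came from the genotype in the labels. Two-sided tests and SEs came from limma 3.58.1 (lmFit, eBayes) under R 4.3.3, and p-values were adjusted over all probe sets by Benjamini-Hochberg, with 0.05 as the threshold. The fit was tested on simulated data. Correlations used levels centred on the genotype mean and permutation within genotype with 100000 resamples (exact for 1 genotype alone, SciPy 1.17.1), adjusted over 21 pairs. Alternatives were array weights, an intensity trend, median centring, renewed quantile normalization, removal of the dimmest 25% of probe sets, a block for the number series, each series alone, the neuronal marker mean as a covariate, removal of 4 db/+ arrays and of each array in turn. The fits on the Arntl level, and the removal of the 4 arrays together with the block, were added after the data had been seen. Members and lists were chosen with earlier results of these data known. Named genes were all members, up to 6 genes of each other list with the smallest p among those past the threshold, and the 5 probe sets most and least like Arntl and Dbp. Mt2, outside that rule for genotype, is counted only.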

Additional observations from a re-analysis of the deposited data

Results flagged for a closer look

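Arntl on db/db 110 was 9.18, while the other 5 db/db arrays lay between 8.21 and 8.38, so that its gap to the nearest array made up 0.817 of the group's range. Clock on db/db 409 was 11.03, while the other 5 db/db arrays lay between 11.29 and 11.43, a gap of 0.645 of the range. These were the 2 values that stood apart among 62 groups of arrays and genes looked at, and chance marks about 1 in 20 such groups. Without db/db 110, 3 members passed between genotypes at equal Arntl level in place of 5. No cause was tested.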

How the results depend on the processing

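Clock was higher in db/db under all alternatives run, from 0.44 to 0.53 when each array was left out. Over all genes 3867 passed between genotypes, against 6525 with array weights, 1404 in arrays 404 to 411 alone, 2029 with the neuronal mean as a covariate and 1992 without db/+ 101, 103, 104 and 106 (2893 to 4529 leaving out each array). Members passing numbered 1, against 3 with array weights, 2 in arrays 404 to 411 alone, 2 in arrays 101 to 112 alone, 2 with median centring, 2 with the series block, 2 with quantile normalization, 2 without the dimmest 25% of probe sets and 0 with the neuronal covariate (1 to 3 leaving out each array, with 3 without db/+ 404 and 2 without db/+ 407). Between series 2622 genes passed, against 371 within db/db, 61 within db/+ and 1584 without those 4 arrays (1406 to 3177). Members passing there numbered 2, and 0 within either genotype (2 to 3). The interaction gave 0 genes, 767 with array weights and 0 to 1311 leaving out each array, with 1311 without db/+ 105. The slope on Arntl gave 2 genes, both members, against 23 genes within db/db, of which 0 were members, and 0 within db/+, 0 with the block and 0 without the 4 arrays (0 to 10 genes and 0 to 3 members leaving out each array). At equal Arntl level 5 members passed, 3 without the 4 arrays (3 to 5). Of 21 pairs 7 passed by Pearson r, 0 within db/db, 3 without the 4 arrays and 3 without the 2 extreme arrays (7 to 11, with 11 without db/+ 404). By Spearman rho 9 passed, 0 within db/db, 0 without the 4 arrays and 3 without the 2 extreme arrays.

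Differences near 0 changed sign. For db/db minus db/+, Arntl was 0.93 in arrays 404 to 411, 0.30 with the neuronal covariate, 0.0075 with the block and 0.11 without the 4 arrays (-0.48 to 0.051 leaving out each array). Npas2 was -0.0915 in arrays 101 to 112, -0.18 with the neuronal covariate, -0.18 without the 4 arrays and -0.20 with the block added (-0.0752 to 0.15). Tef was -0.48 in arrays 404 to 411, -0.40 with the neuronal covariate, -0.0351 with the block, -0.26 without the 4 arrays and -0.20 with the block added (-0.05 to 0.20). In arrays 101 to 112 Per3 was 0.0865 and Nr1d2 0.15 (-0.16 to 0.0102 leaving out each array). At equal Arntl level without the 4 arrays Npas2 was -0.20 (-0.0082 to 0.17 leaving out each array), and Tef ran from -0.0544 to 0.0613. Between series Npas2 was -0.11 within db/+ and -0.14 without the 4 arrays (-0.0324 to 0.13), Per3 was -0.0807 within db/db, and Nr1d2 was -0.022 with array weights and -0.18 within db/db. The causes were not tested. No paired analysis was possible because the groups share no replicate numbers. Dim genes cannot be separated from background for want of detection calls.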
